A study of Mus musculus with 6 samples.

Results

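Small nucleolar RNAs (snoRNAs) and small Cajal body RNAs (scaRNAs) were described here in microglia, the resident macrophages of nervous tissue, from mouse optic nerve. A gene was a member when its symbol began, in any case, with Snord, Snora, snoU or Scarna and its FPKM was above 0 in at least 1 of the 6 libraries. FPKM scales the fragments on a gene by its length and by the library's mapped total. Of 1465 rows with such symbols among the 37447 genes of the deposited table, 173 were members. Because the members were chosen by being above 0 FPKM in these same libraries, the numbers detected are a description and carry no test. The other 1292 rows were 1212 listed at 0 in all 6 libraries and 80 with no value.

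The cells came from optic nerves of C57BL/6 mice aged 3 months and were flow sorted after a Percoll gradient. The group called FMC had the genotype Nf1 flox/mut; GFAP-Cre, the optic glioma model, and gave 4 libraries, of which the labels give FMC 1 and 4 as female and FMC 2 and 3 as male. The group called FM had the genotype Nf1 flox/mut without Cre and gave 2 libraries, a male one (FM 1) and a female one (FM 2). Nf1 is the gene of neurofibromatosis type 1, and both genotypes hold a floxed and a mutant allele of it; what differed was Cre, which recombines the floxed allele in the cells where it acts. The GFAP promoter drives Cre in astroglial cells and not in microglia, so the sequenced cells are not those in which the Cre line is meant to act. The labels call the libraries biological replicates and do not say how many animals each one holds.

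C/D box snoRNAs guide 2′-O-methylation of ribosomal RNA by fibrillarin, and H/ACA box snoRNAs guide pseudouridylation by dyskerin. ScaRNAs carry the same boxes but sit in Cajal bodies, where they guide the modification of spliceosomal small nuclear RNAs. Most of these RNAs in mammals lie in introns of host genes and are cut from the spliced intron, while a few, such as the U8 RNA Snord118, have their own promoter. They are short and lack a poly(A) tail.

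The sequences of 10 members on which the results turn were read from GENCODE M21 transcripts (build GRCm38) by Ensembl gene ID. Of the 173 members, 168 had a sequence there, and 167 had the same length as in the deposited table. For C/D box RNAs the capitals mark a C box, TGATGA within the first 30 bases, and a D box, CTGA within the last 20 bases. The first 2 were C/D box members above 0 in all 6 libraries, and the third, snoU6-77, was the C/D box RNA of this set with all 4 FMC libraries above both FM libraries.
Snord118: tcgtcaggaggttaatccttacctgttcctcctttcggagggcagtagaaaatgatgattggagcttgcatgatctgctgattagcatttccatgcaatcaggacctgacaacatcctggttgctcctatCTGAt
Snord17: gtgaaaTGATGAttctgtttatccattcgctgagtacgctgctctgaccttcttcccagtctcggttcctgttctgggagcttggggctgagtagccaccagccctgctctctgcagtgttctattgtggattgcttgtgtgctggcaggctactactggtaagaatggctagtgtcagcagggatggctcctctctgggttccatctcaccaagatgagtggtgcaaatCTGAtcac
snoU6-77: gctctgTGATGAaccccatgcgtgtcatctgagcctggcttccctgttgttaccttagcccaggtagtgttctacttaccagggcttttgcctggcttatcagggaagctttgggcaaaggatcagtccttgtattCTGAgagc
For H/ACA box RNAs the capitals mark the H box, ANANNA nearest the middle and at least 40 bases from either end, and an ACA exactly 3 bases before the 3′ end. Snora31 was above 0 in all 6 libraries, and the others are those whose FMC and FM libraries did not overlap.
Snora31: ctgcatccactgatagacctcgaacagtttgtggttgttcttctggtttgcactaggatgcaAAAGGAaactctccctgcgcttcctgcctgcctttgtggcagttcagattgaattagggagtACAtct
SNORA40: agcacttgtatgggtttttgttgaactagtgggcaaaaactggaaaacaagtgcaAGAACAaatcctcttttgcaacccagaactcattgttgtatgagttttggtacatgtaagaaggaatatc
SNORA19: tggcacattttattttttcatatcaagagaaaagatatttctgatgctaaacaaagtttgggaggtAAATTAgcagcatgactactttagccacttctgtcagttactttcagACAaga
SNORA57: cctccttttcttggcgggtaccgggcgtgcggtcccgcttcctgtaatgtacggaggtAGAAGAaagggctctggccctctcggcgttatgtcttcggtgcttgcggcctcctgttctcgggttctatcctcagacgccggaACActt
SNORA53: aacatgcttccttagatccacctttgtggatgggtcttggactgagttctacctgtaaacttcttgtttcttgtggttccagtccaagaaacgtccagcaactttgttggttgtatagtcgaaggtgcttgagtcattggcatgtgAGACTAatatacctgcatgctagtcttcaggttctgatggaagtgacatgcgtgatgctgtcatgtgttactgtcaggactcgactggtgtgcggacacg
Of the scaRNAs, Scarna3a had groups that did not overlap, and Scarna8 is shown because it had both boxes.
Scarna3a: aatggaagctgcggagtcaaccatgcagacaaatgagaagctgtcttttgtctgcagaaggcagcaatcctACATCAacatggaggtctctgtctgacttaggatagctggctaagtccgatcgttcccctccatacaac
Scarna8: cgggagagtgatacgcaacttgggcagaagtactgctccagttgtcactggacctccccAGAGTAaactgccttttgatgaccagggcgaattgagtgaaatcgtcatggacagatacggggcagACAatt
The letters of the ACA box were absent at that place from SNORA40, SNORA53 and Scarna3a, and those of the C box from Snord118. SNORA53 and Scarna3a hold the letters ACA slightly nearer the 3′ end, where they were not counted. A match or its absence describes these letters only. SNORA40 shared a run of 25 bases with 4 other sequences of the 1191 rows that could be matched, and SNORA19 and SNORA57 with 1 other each, so their reads may be split among copies. In all, 94 of the 168 members with a sequence shared such a run with another row.

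The boxes were more frequent among rows above 0 than among rows at 0. The C box and D box together were found in 7 of 9 C/D box members (77.8%), against 58 of 114 C/D box rows at 0 in all libraries (50.9%). The ACA was found in 51.4% of H/ACA box members and in 19.3% of H/ACA box rows at 0. Much of the H/ACA total was 1 repeated family, SNORA17, which had the ACA in 1 of 567 sequences (0.176%). Without SNORA17 the ACA was found in 71 of 94 members (75.5%), against 155 of 285 rows at 0 (54.4%). These shares depend on the same values that chose the members and were not tested.

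Detection differed by class. Of the H/ACA box rows 141 of 1032 were above 0 (13.7%), of the C/D box rows 9 of 350 (2.57%), of the scaRNA rows 17 of 43 (39.5%), and of the snoU rows, a mixed class named from U numbers, 6 of 40 (15.0%). The classes also differed in length: the median over all rows was 79 nt for C/D box, 130.5 nt for H/ACA box, 137 nt for scaRNA and 103.5 nt for snoU rows. C/D box members had a median length of 110 nt. The C/D box class also held 52 of the 80 rows with no value.

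Detection went with length, in this family and among the other short genes of the table. Among rows of up to 80 nt, 3 of 243 snoRNA and scaRNA rows (1.23%) and 10 of 772 other rows (1.30%) were above 0. From 131 to 140 nt the shares were 17.1% of snoRNA and scaRNA rows and 20.7% of other rows. From 201 to 300 nt they were 12 of 15 rows (80%) and 514 of 885 other rows (58.1%). In 2 bins the family was well below the others: from 81 to 100 nt 0.877% against 9.92%, and from 121 to 130 nt 12.9% against 36.9%. The labels' protocol selected cDNA fragments of 300 to 500 bp, and 170 of the 173 members were shorter than 300 nt. The part of that step in the detected numbers was not tested.

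**Figure D1:**
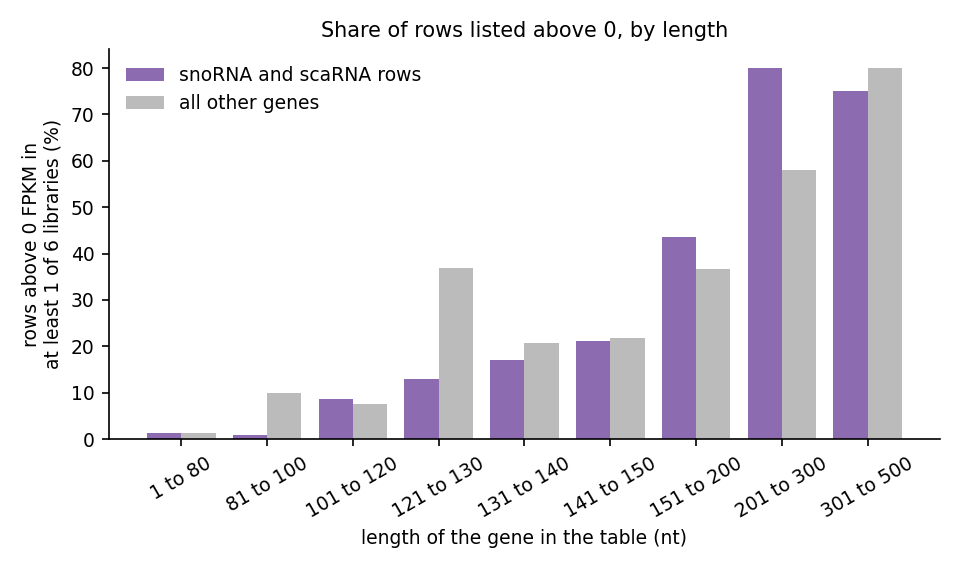
Share of rows above 0 FPKM in at least 1 of the 6 libraries (y axis, percent) by gene length in the table (x axis, nt), for snoRNA and scaRNA rows (purple) and all other genes (grey). The purple share is 1.23% up to 80 nt and 80% from 201 to 300 nt, and the grey share moves from 1.30% to 58.1% over the same bins.

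Other short RNA classes gave the same range. Above 0 were 30 of 665 miRNA genes, 27 of 933 U6 rows, 80 of 489 rows of other U small nuclear RNAs, 99 of 329 7SK rows and 4 of 24 Y RNA rows. None of the 128 5S ribosomal RNA rows was above 0, although every cell makes this RNA. A snoRNA at 0 is therefore given as listed at 0 and not as absent.

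Most members were seen in a single library. Of 173, 107 were above 0 in 1 library, 27 in 2, 19 in 3, 7 in 4, 9 in 5 and 4 in all 6. The members above 0 in each library numbered 54 in FMC 1, 50 in FMC 2, 51 in FMC 3 and 48 in FMC 4, against 52 in FM 1 and 60 in FM 2. The FMC range of 48 to 54 and the FM range of 52 to 60 overlapped, with means of 50.8 ± 2.5 (SD, n = 4) in FMC and 56 ± 5.66 (SD, n = 2) in FM. The mean difference, FMC minus FM, was -5.25 members, and it was 1.5 when rows that share a symbol were summed first, so its direction depended on how copies were counted.

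**Figure D2:**
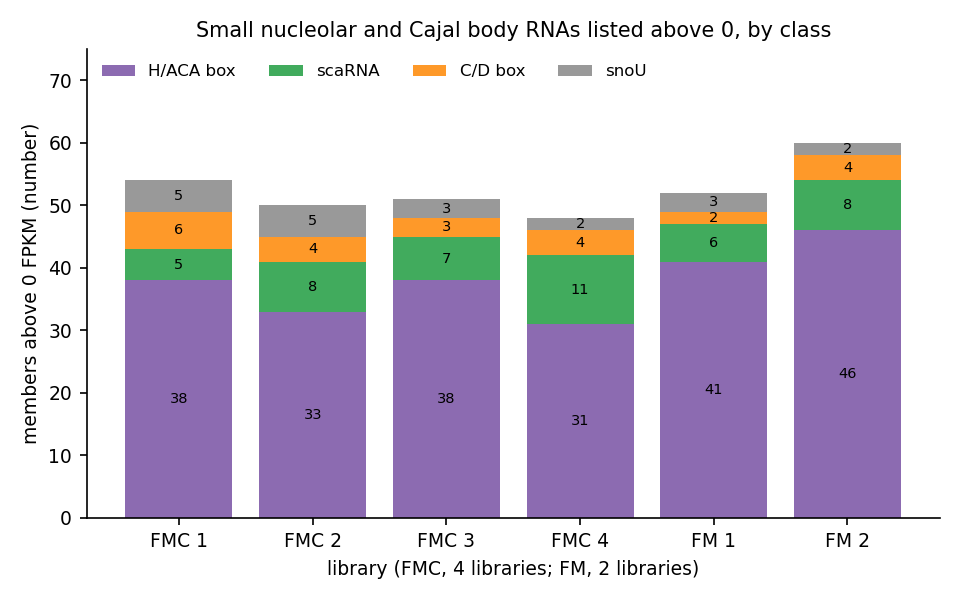
Number of members above 0 FPKM (y axis) in each of the 4 FMC and 2 FM libraries (x axis), stacked by class, with the number of each class in its segment. The totals run from 48 to 54 in FMC and are 52 and 60 in FM, and H/ACA box RNAs make up most of every library.

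Libraries of the same genotype shared few members. FMC 1 and FMC 4 shared 16, which was 29.6% of those in FMC 1 and 33.3% of those in FMC 4. The most shared within FMC was 22, reached by FMC 1 with FMC 3, by FMC 2 with FMC 4 and by FMC 3 with FMC 4. FM 1 and FM 2 shared 17, which was 32.7% of FM 1 and 28.3% of FM 2. Between the genotypes the shared number ran from 12 to 22. In total 78 members were above 0 only in FMC libraries, 47 only in FM libraries and 48 in both, in a design with 4 FMC and 2 FM libraries. Of those seen in only 1 group, 64 were in exactly 1 FMC library and 43 in exactly 1 FM library.

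The levels of members were close to the lowest value the table gives at their length. For each library the lowest FPKM above 0.001 was taken over all genes whose length was within 2 nt, where at least 3 such genes were above it. The member itself was among these genes, so a value that equals the lowest can be the member's own. At 110 nt this lowest value was 71.2 in FMC 1, 96.9 in FMC 2, 75.7 in FMC 3 and 70.6 in FMC 4, against 97.6 in FM 1 and 35.1 in FM 2. It fell with length, in FMC 1 to 25.9 FPKM at 130 nt, 5.498 at 200 nt and 1.25 at 300 nt. Of 303 member values with such a lowest value, 162 (53.5%) were within 1.5 times it and 72 were more than 5 times it. An FPKM of 71.2 in an RNA of 110 nt can thus be the smallest amount listed, and levels of members of different length are not comparable.

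The share of values within 1.5 times the lowest was 59.6% in FMC 1, 58.3% in FMC 2, 52.0% in FMC 3 and 40.9% in FMC 4, against 58.8% in FM 1 and 50.0% in FM 2. The median level of members above 0 was 27.6 FPKM in FMC 1, 36.2 in FMC 2, 40.3 in FMC 3 and 64.0 in FMC 4, against 40.04 in FM 1 and 18.3 in FM 2. FM 2 had the most members, the lowest median level and the lowest value at 110 nt; FMC 4 had the fewest members and the highest median. Depth in reads is not known here.

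**Figure D3:**
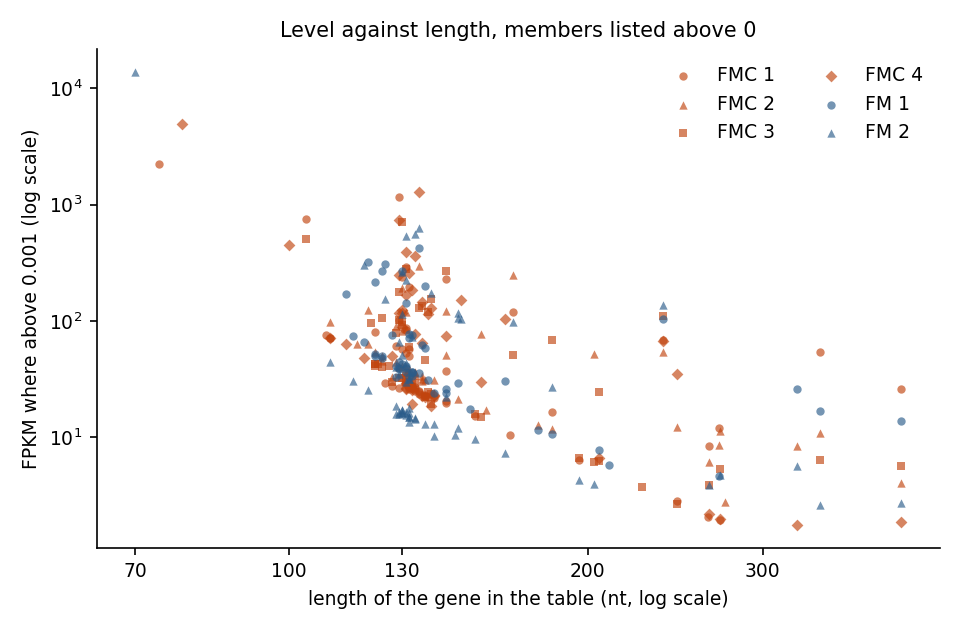
FPKM of every member value above 0.001 (y axis, log scale) against the length of the gene (x axis, nt, log scale), with FMC libraries in orange and FM libraries in blue and a marker for each library. The lower edge of the points falls with length in every library, and the 3 members of up to 80 nt lie at 2231 FPKM or above.

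The C/D box members were few and each is given here. Snord118, the U8 RNA needed to process the precursor of the large-subunit ribosomal RNAs, had 24.2, 295, 130 and 1285 FPKM in FMC 1 to FMC 4, against 426 and 633 FPKM in FM 1 and FM 2. It lies outside any host gene, and its 4 FMC libraries spanned both FM values. Snord17, inside the sorting nexin gene Snx5, had 68.6, 54.5, 111 and 66.9 FPKM in FMC and 105 and 136 FPKM in FM, with 1 FMC library above the lower FM library. Its highest library was under 3 times its lowest, the narrowest range of the 4 members above 0 in all 6 libraries.

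Snord8, inside the chromatin remodeller gene Chd8, had 71.2, 97.2 and 71.9 FPKM in FMC 1, FMC 2 and FMC 4 and was listed at 0 in FMC 3 and in both FM libraries. Those 3 values were 1.00 to 1.02 times the lowest value at its length. Snord13, the U13 RNA that acts on the small-subunit ribosomal RNA, had 757 FPKM in FMC 1 and 501 in FMC 3 and was listed at 0 in FMC 2, FMC 4 and both FM libraries. Snord15a, inside the ribosomal protein gene Rps3, had 21.5 FPKM in FMC 2 and 105 in FM 2 and was listed at 0 elsewhere.

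The other C/D box members were seen once each. Snord82, inside the nucleolin gene Ncl, had 13873 FPKM in FM 2. Snord53, inside Wdr43, had 4964 FPKM in FMC 4, and SNORD101, inside the ribosomal protein gene Rps12, had 2231 FPKM in FMC 1. These are the 3 members of up to 80 nt (70, 78 and 74 nt long). The summed FPKM of all members was 18316 in FM 2, of which Snord82 gave 13873, against 4032 in FM 1. This sum was not compared between groups. Snord89 had 71.4 FPKM in FMC 1.

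Among H/ACA box members, only Snora31, inside the translationally controlled tumour protein gene Tpt1, was above 0 in all 6 libraries. It had 56.8, 193, 703 and 116 FPKM in FMC 1 to FMC 4, against 267 and 114 FPKM in FM. The FMC libraries lay on both sides of the FM libraries. Snora33, inside Rps12, had 1162 FPKM in FMC 1, 177 in FMC 3 and 735 in FMC 4, against 65.5 in FM 2, and was listed at 0 in FMC 2 and FM 1. Snora68 had 289, 35.7 and 389 FPKM in FMC 1, FMC 2 and FMC 4, against 143 and 43.2 FPKM in FM, with FMC 3 listed at 0. Snora30, inside the chromatin remodeller gene Srcap, had 241, 40.7, 97.4 and 123 FPKM in FMC and 51.0 FPKM in FM 2, with FM 1 listed at 0. The SNORA4 row inside the translation initiation gene Eif4a2 had 154 FPKM in FMC 3 and 129 in FMC 4, against 172 in FM 2. In each of these 4 members at least 1 library of a group was at 0 while another exceeded 40 FPKM.

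The SNORA17 family stood apart within the class. It had 612 rows, of which 47 were above 0, and 45 of those 47 were above 0 in only 1 library. Between 4 and 9 of its rows were above 0 in an FMC library, against 13 in FM 1 and 12 in FM 2. Over all genes 23086 to 25404 were above 0 in an FMC library, against 25682 in FM 1 and 25319 in FM 2. The family's counts come from the values that chose the members, and no difference between the groups is read from them. Only 1 of the 44 SNORA17 members found in the annotation lay within a host gene, against 68 of 94 other H/ACA members (72.3%). The U17 RNAs Snora73a and Snora73b, which act in the processing of small-subunit ribosomal RNA, lie together in Rcc1. Snora73a had 6.19 FPKM in FMC 3 and 7.77 in FM 1, and Snora73b had 24.2 FPKM in FMC 3 and 6.66 in FMC 4.

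Among scaRNAs, only Scarna2, which guides modification of the U2 small nuclear RNA, was above 0 in every library. It had 25.7, 4.01, 5.67 and 1.85 FPKM in FMC 1 to FMC 4, against 13.8 and 2.70 FPKM in FM. At 414 nt it was the longest member, and its values were 7.46 to 74.0 times the lowest value at its length. Scarna6, inside the autophagy gene Atg16l1, had 8.43, 6.12, 3.87 and 2.19 FPKM in FMC and 3.89 FPKM in FM 2, with FM 1 listed at 0. Scarna8, inside Haus6, had 35.6 and 26.4 FPKM in FMC 2 and FMC 4, against 36.2 and 29.6 FPKM in FM. Scarna3b, inside Dcaf5, had 24.7, 19.1 and 18.5 FPKM in FMC 2, FMC 3 and FMC 4, each 1 times the lowest value at its length, and was listed at 0 in both FM libraries. The SCARNA15 row on chromosome 5 had 78.2 FPKM in FMC 3, against 32.6 and 40.4 FPKM in FM.

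Of the snoU members, snoU97, inside the translation gene Eif4g2, had 119, 246 and 51.3 FPKM in FMC 1 to FMC 3, against 97.4 FPKM in FM 2. Its value in FMC 4 was 6.09e-12 FPKM, which counts as above 0 under the rule but is no measurable level. snoU90 and snoU89 are known in human as Cajal body RNAs. snoU90, inside Kpna4, had 54.5, 10.9 and 6.34 FPKM in FMC 1 to FMC 3, against 16.8 and 2.62 FPKM in FM. snoU89, inside the prohibitin gene Phb2, had 11.9 and 8.51 FPKM in FMC 1 and FMC 2, against 4.61 FPKM in FM 1. snoU6-53 had 74.9 FPKM in FMC 1 and snoU109 17.2 FPKM in FMC 2, each in that library alone.

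Some well-known snoRNA groups of the brain were not seen. All 137 SNORD115 rows and all 27 SNORD116 rows (both from the imprinted cluster on chromosome 7 expressed in neurons) were listed at 0. They are 69 to 94 nt long, in the range where few rows of any kind were above 0, so their listing at 0 is not a measure of absence. Neuronal markers were low: 5 measured markers summed to 0.937 to 5.07 FPKM in FMC and 1.64 to 3.85 FPKM in FM. All 9 rows inside Gas5, a host gene that carries several C/D box RNAs, had no value. Inside the other listed hosts with long non-coding transcripts, 1 of 1 row in Snhg9 was above 0. Of 4 rows in Snhg12, 1 was above 0 and 3 had no value. Of 2 rows in Snhg11, 0 were above 0 and 1 had no value.

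Host genes were found through the annotation by gene ID. A host was a gene on the same strand that contained the whole member and had FPKM values. Of 168 annotated members 90 (53.6%) had a host, against 202 of 949 rows at 0 (21.3%). Rows with no value had the largest share, 61 of 74 (82.4%). Their hosts had a median level of 188 FPKM, against 26.5 FPKM for the hosts of members. Among H/ACA box rows without SNORA17, 68 of 94 members (72.3%) had a host, against 86 of 285 rows at 0 (30.2%). The 90 lay in 76 different hosts, and 14 of the 90 lay in a ribosomal protein gene. Another 29 members without a host lay opposite to a gene on the other strand. The sources used here do not state whether counting used strand, so reads of the opposite gene cannot be told apart from theirs.

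In every library the hosts of members above 0 had a higher median level than the hosts of members at 0. The host medians where the member was above 0 were 59.99, 55.4, 51.6 and 51.5 FPKM in FMC 1 to FMC 4, against 30.7 and 42.7 FPKM in FM. Where the member was at 0 they were 16.9, 11.5, 20.0 and 27.1 FPKM in FMC, against 18.6 and 27.1 FPKM in FM. Reads of an unspliced host intron fall on the member too, and their part in these values was not tested. In 41.7% to 48.6% of the cases in an FMC library the member's FPKM exceeded that of its host, against 63.3% in FM 1 and 43.2% in FM 2. Sharing a host did not mean being seen together: of 4 members inside Taf1d, which encodes a factor of RNA polymerase I, each was above 0 in a single library, SNORA8 in FMC 1, a SNORA40 row in FMC 3, SNORA32 in FMC 4 and SNORA18 in FM 1.

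**Figure D4:**
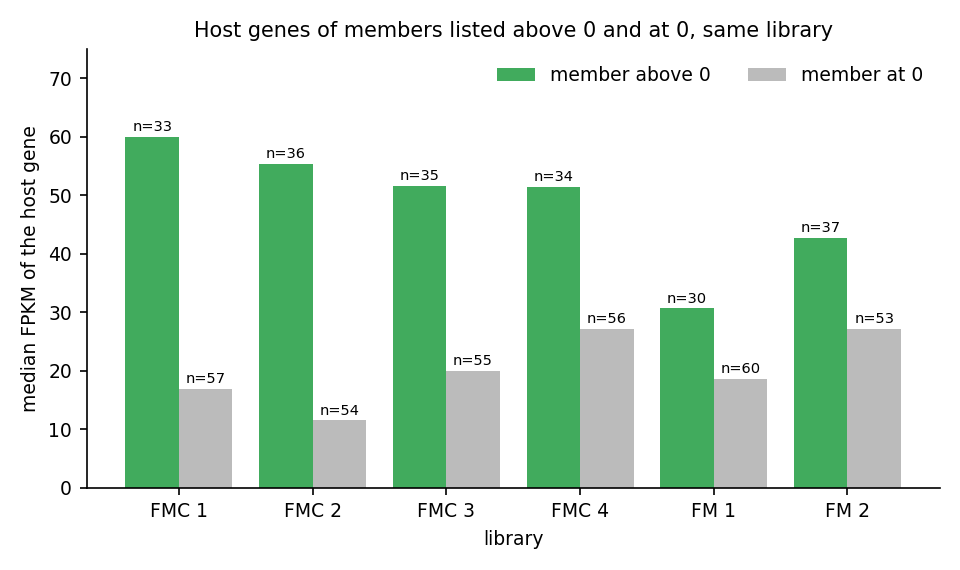
Median FPKM of host genes (y axis) in each library (x axis), for members above 0 (green) and at 0 (grey) in that library, with the number of members as n. In each of the 6 libraries the green bar is the higher, at 51.5 to 59.99 FPKM in FMC and 30.7 and 42.7 FPKM in FM.

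The comparison of FMC with FM asks whether microglia of the glioma model differ from control microglia. Values were tested with limma on the log2(FPKM + 1) scale. A gene entered when 2 or more libraries had 1 FPKM or more, which left 18208 genes, with adjustment over all of them and a threshold of 0.05. Only 66 of the 173 members entered, since most were above 0 in 1 library. Over all genes 0 were called higher in FMC (0%) and 5 lower (0.0275%); at an unadjusted p under 0.05, 208 were higher and 765 lower. Of the 66 members limma called 0 higher and 2 lower, with 8 higher and 6 lower at an unadjusted p under 0.05. These include members listed at 0 throughout one group, such as Snora69 in FM and SNORA40 in FMC. Such members entered the test only through the group where they were high. The member counts are therefore not comparable with those over all genes, and no excess is read from them. The median log2 difference, FMC minus FM, was -0.28 over the 66 members and -0.12 over all genes tested. With median ratio scaling these medians were -0.15 and -0.01.

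The 2 called members were SNORA40 and SNORA19, both H/ACA box RNAs. The called SNORA40 row (ENSMUSG00000077711, chr7:29136527-29136651 in mm9, inside the ribosomal protein gene Rps16) was listed at 0 in all 4 FMC libraries and had 309 and 153 FPKM in FM 1 and FM 2. The difference on the log2(FPKM + 1) scale was -7.77 ± 0.69 (SE; limma adjusted p = 0.0239). The FM values were 6.72 and 9.14 times the lowest value at that length. SNORA19 (chr19:60851424-60851542, inside the translation initiation gene Eif3a) was also listed at 0 in all 4 FMC libraries and had 65.5 and 300.4 FPKM in FM 1 and FM 2. Its difference was -7.15 ± 0.82 (SE; limma adjusted p = 0.0416), and its FM values were 1.29 and 14.5 times the lowest value at its length.

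Both calls rest on 4 zeros with no spread and 2 FM values. Their SE therefore leans on the spread of other genes, which limma uses to moderate each gene's own. In 8 of 13 alternatives for SNORA40 and in 10 of 13 for SNORA19 the adjusted p passed 0.05, among them a pseudocount of 0.1 (SNORA40 0.0577, SNORA19 0.0685) and sex as a covariate (0.0793 and 0.0817). The call of SNORA40 was lost without FMC 2 (0.0881) or without FMC 3 (0.0561), and that of SNORA19 without any 1 of the FMC libraries (0.0580 to 0.116). Without either FM library neither member passed the filter. The fold cannot be given, since no counts bound the zeros. The titles carry dates, without saying what they record, and 2 pairs of libraries lie 1 day apart. Within these pairs the log2 difference of SNORA40 was -8.28 (FMC 2 minus FM 1) and -7.27 (FMC 3 minus FM 2), and that of SNORA19 was -6.05 and -8.24.

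Neither host gene passed the threshold. Rps16 had 606, 257, 236 and 855 FPKM in FMC, against 239 and 792 FPKM in FM, and its log2 difference was -0.05 ± 0.73 (SE) with a limma adjusted p of 0.999. Eif3a had 75.6, 83.7, 79.5 and 101 FPKM in FMC, against 67.9 and 53.6 FPKM in FM, so that all FMC libraries were above both FM libraries, and its log2 difference was 0.48 ± 0.42 (SE) with a limma adjusted p of 0.993. Other SNORA40 rows were above 0 in FMC: the row inside Taf1d with 42.8 FPKM in FMC 3, the row on chromosome 17 with 28.4 FPKM in FMC 1 and the row on chromosome 12 with 96.7 FPKM in FMC 3. The markers of red cells also moved with the groups: 3 erythroid genes summed to 6.10 to 15.2 FPKM in FMC and to 81.6 and 104.5 FPKM in FM. Their part in the calls was not tested. In bulk libraries fewer cells of a type and less RNA per cell cannot be told apart.

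Besides these, 2 members had all FMC libraries below both FM libraries without passing the threshold. SNORA57 inside the sialyltransferase gene St3gal2 (chr8:113447016-113447163) was listed at 0 in FMC and had 29.1 and 118 FPKM in FM (limma adjusted p = 0.088). Scarna3a inside the ubiquitin ligase gene Cop1 (chr1:161270414-161270553) was listed at 0 in FMC and had 23.9 and 10.2 FPKM in FM (limma adjusted p = 0.185). Both Scarna3a values were themselves the lowest at that length. So 4 members were lower in every FMC library, beside 8.22% of all genes tested. With all FMC libraries at 0, a member enters the test only when both FM libraries are above 1 FPKM, so these 4 had to be apart, and their number supports nothing.

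In the other direction 2 of the 66 members tested had all FMC libraries above both FM libraries, beside 4.34% of all genes tested. SNORA53, listed at 0 in both FM libraries, entered the test only through FMC, so nothing is read from this count. snoU6-77, which guides methylation of the U6 small nuclear RNA, lies inside the helicase gene Eif4a1 (chr11:69482354-69482497). It had 228, 121, 268 and 73.8 FPKM in FMC 1 to FMC 4, against 24.1 FPKM in FM 1 and a listing at 0 in FM 2. The FM 1 value equalled the lowest at its length, and those of FMC 1 and FMC 2 were 11.5 and 4.77 times it. FMC 3 and FMC 4 had no such lowest value. The lowest FMC library was above the higher FM library, and the log2 difference was 4.94 ± 1.12 (SE; limma adjusted p = 0.424). SNORA53 inside the mitochondrial phosphate carrier gene Slc25a3 (chr10:90581036-90581281) had 2.84, 12.3, 2.68 and 34.9 FPKM in FMC and was listed at 0 in both FM libraries. It was the only member above 0 in all 4 FMC and no FM library, and its log2 difference was 3.18 ± 1.06 (SE; limma adjusted p = 0.693). Its values in FMC 1 to FMC 4 were 1.01, 2.86, 1.12 and 3.65 times the lowest value at its length. Eif4a1 had 98.6, 128, 111 and 175 FPKM in FMC and 123 and 152 FPKM in FM, and Slc25a3 135.2, 182, 145 and 227 FPKM in FMC and 120 and 200.4 FPKM in FM, so both hosts overlapped between the groups.

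The 4 members above 0 in all 6 libraries are those with the most complete data, and limma called none of them. The log2 differences were -1.47 ± 1.27 (SE) for Snord118, -0.71 ± 0.46 for Snord17, -0.01 ± 0.90 for Snora31 and -0.06 ± 1.02 for Scarna2. Their adjusted p ranged from 0.993 to 1.00. Over the 66 members the median residual SD was 2.72 on the log2 scale, against 0.84 over all genes.

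**Figure D5:**
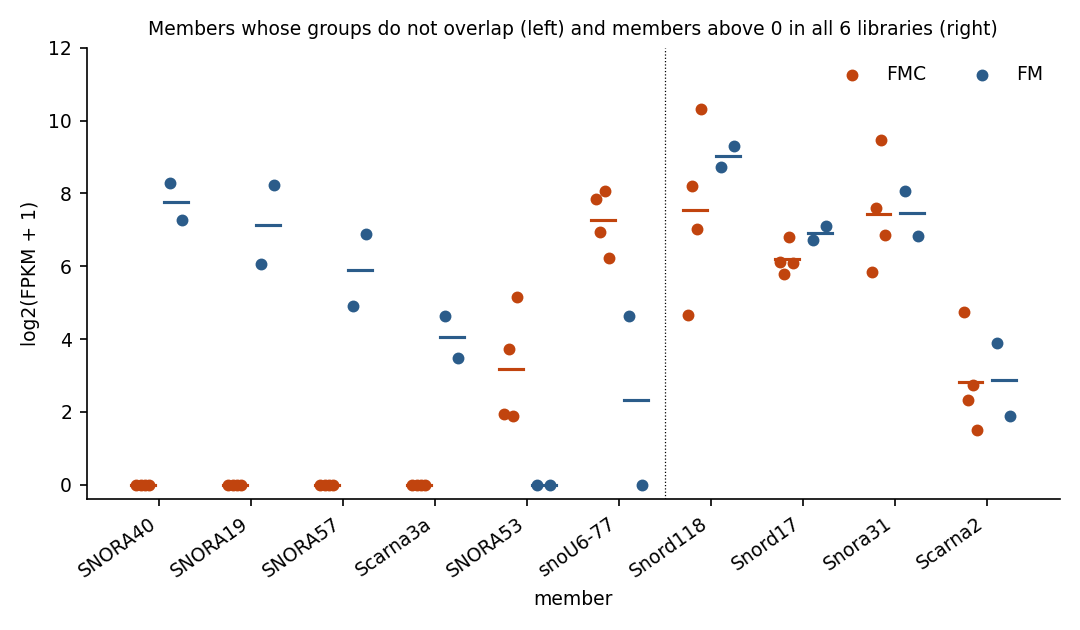
Level of 10 members as log2(FPKM + 1) (y axis), with 1 point for each library and a bar at the group mean, FMC (orange, n = 4) left of FM (blue, n = 2). The 6 members left of the dotted line have groups that do not overlap, 4 of them with every FMC library at 0, and the 4 members right of it overlap between the groups.

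A further 5 members, picked out after their values were seen, were above 0 in 3 FMC libraries and listed at 0 in both FM libraries. Snord8 and Scarna3b are given above. Snora69, inside the ribosomal protein gene Rpl39, had 86.8, 119 and 281 FPKM in FMC 1 to FMC 3, and the difference over all 6 libraries did not pass the threshold (limma adjusted p = 0.766). A SNORA70 row had 22.2, 119 and 114 FPKM in FMC 1, FMC 3 and FMC 4. A SNORA62 row inside Rpsa had 76.7, 14.8 and 29.7 FPKM in FMC 2 to FMC 4.

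None of the listed proteins that work with these RNAs passed the threshold. Of 4 C/D box snoRNP proteins tested, 0 were called and the median log2 difference was -0.08. Fbl, fibrillarin, the methyltransferase, had 9.59, 37.3, 17.1 and 42.2 FPKM in FMC, against 27.9 and 56.3 FPKM in FM (limma adjusted p = 0.993). Nop58 and Nop56, its core partners, had adjusted p of 0.999. Of 4 H/ACA box snoRNP proteins tested, 0 were called and the median was -0.11. Dkc1, dyskerin, the pseudouridine synthase, had 4.64, 42.4, 28.2 and 30.4 FPKM in FMC, against 29.7 and 20.4 FPKM in FM (limma adjusted p = 0.999). Nop10 and Gar1, core proteins of the same particle, had adjusted p of 0.998 and 0.999.

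Of 10 Cajal body and scaRNP proteins tested, 0 were called, with 0 higher and 2 lower at an unadjusted p under 0.05 by limma. Those 2 were Wrap53, which brings scaRNAs to Cajal bodies, and Gemin4, a protein of the SMN complex. Wrap53 had 0.135, 2.13, 1.04 and 4.01 FPKM in FMC, against 8.35 and 12.1 FPKM in FM (log2 difference -2.17 ± 0.84 SE, limma adjusted p = 0.801). Gemin4 had 2.21, 0.037, 1.19 and 5.09 FPKM in FMC, against 6.26 and 16.8 FPKM in FM (limma adjusted p = 0.901). Coil, coilin, the scaffold of the Cajal body, had 4.54, 4.70, 5.24 and 2.89 FPKM in FMC, against 10.2 and 10.5 FPKM in FM (limma adjusted p = 0.993). Over all 18208 genes 765 were lower at that unadjusted p. In 5 of the 10, these 3 with Lsm10 and Ell, all FMC libraries lay below both FM libraries, as did 8.22% of all genes tested, and nothing particular to the list is read from this count.

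Assembly and processing factors gave 0 called of 15 tested with a median log2 difference of 0.01, the nearest to the threshold being Pih1d1, Dbr1 and Rpap3 (each at a limma adjusted p of 0.993). Proteins of ribosomal RNA synthesis and the nucleolus gave 0 of 34, with a median of 0.09 and Utp18, Bop1 and Pes1 nearest (each at 0.993). Of 40 known snoRNA host genes tested 0 were called, with a median of 0.00 and Ppan nearest (limma adjusted p = 0.939), then Rnf149 and Rbmx. The 62 hosts of the members that could be tested had a median of -0.11, 0 called, and 1 higher and 0 lower at an unadjusted p under 0.05 by limma.

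The cells carried microglial markers throughout: 8 of 8 were above 0 in all libraries and their sum was 2787 to 4167 FPKM in FMC and 2638 and 4878 FPKM in FM. B cell markers summed to 9.79 to 90.7 FPKM in FMC and 30.5 and 105 FPKM in FM, and T cell markers to 17.8 to 73.2 FPKM in FMC and 7.60 and 21.2 FPKM in FM. Libraries had 13390 to 15415 genes at 1 FPKM or more in FMC, against 15549 and 15562 in FM.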

How the data were processed

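RNA from 6 libraries of sorted optic nerve microglia was amplified with the Ovation RNA-Seq method and sequenced as paired ends, per the labels' protocols. The authors deposited an FPKM value per Ensembl gene and library with positions in mm9. Tools named in the submitters' processing notes, without roles, are Cufflinks 2.0.2, TopHat2 2.0.4, Bowtie2 2.0.0 and CASAVA 1.8.2. Strand and multi-mapping settings are not given in the sources used here. Read totals were not used here, so no counting error is given. The p-values rest on each gene's spread between libraries, which limma draws towards the spread of other genes of like level.

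Classes follow the symbol: Snord is C/D box, Snora H/ACA box. Sequences, strands and hosts come from GENCODE M21 (GRCm38), matched by gene ID for 1191 of 1465 rows. Levels were tested as log2(FPKM + 1), where a difference understates the change of low genes, with limma 3.58.1 in R 4.3.3 (intensity trend, two-sided, Benjamini-Hochberg over all 18208 genes). Data were simulated for the FMC minus FM comparison over 18208 genes. Recovered were 3.2% of changes of 2 on the log2 scale, 45.2% of 4, 74.8% of 6 and 87.8% of 8. The median residual SD on that scale was 0.84 over all genes, against 2.72 over the members tested. These shares therefore do not give the recovery of changes in members.

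The members and lists were chosen with earlier results of these data known. Named are members past the threshold, up to 10 per direction whose groups do not overlap, the 5 per class with the highest median FPKM, SNORD115, SNORD116, members in listed hosts, and of each protein list the 3 smallest p plus Fbl, Dkc1 and Coil. Alternatives were 2 scalings, no trend, no filter, a filter on a mean of 5 FPKM, a pseudocount of 0.1, sex, blocks by replicate number and by title date, other detection thresholds, and omission of each library. Libraries were not paired, because the replicate numbers are not stated to pair them. Same-numbered libraries had residual correlations of 0.03 and -0.06. With only 2 FM libraries their residuals are exact opposites, so these correlations can neither show nor exclude pairing.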

Additional observations from a re-analysis of the deposited data

Results flagged for a closer look

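In 4 of the 25 named members 1 FMC library lay far from the other 3, with a gap over 0.829 of the range. Snord15a had 21.5 FPKM in FMC 2, SCARNA15 78.2 FPKM in FMC 3 and snoU6-53 74.9 FPKM in FMC 1, and in each of these the other 3 FMC libraries were listed at 0. Scarna2 had 25.7 FPKM in FMC 1, against 1.85 to 5.67 FPKM in the other 3. Chance flags about 1 in 20 groups, and a member above 0 in a single FMC library is flagged by construction.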

How the results depend on the processing

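With median ratio scaling and with quantile normalization limma again called 2 members and 5 genes lower, and without the intensity trend 10 genes were lower. With no filter, a filter on a mean of 5 FPKM, a pseudocount of 0.1 or sex as a covariate, 0 members and 0 genes were lower, and the pseudocount gave 1 gene higher. The cause was not tested. The replicate block gave 0 lower members and 0 lower genes, with adjusted p of 0.368 for SNORA40 and 0.61 for SNORA19; the replicate numbers are not stated to pair libraries. A block by title dates gave 0 lower members, 1 lower gene and 2 higher genes. Leaving out each library gave 0 to 1 lower and 0 to 1 higher members, and 0 to 4 lower and 0 to 4 higher genes. The higher member was Snora69 without FMC 4, its only FMC library at 0, so that omission fixed the call. With FM 1 or FM 2 left out, the fit takes the spread of FM from FMC. Members without overlap numbered 2 to 7 higher and 4 to 12 lower when a library was left out, and 5 higher after quantile normalization. SNORA57 was called lower without the trend (adjusted p = 0.0431).

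The difference in detected members was -9.25 without FM 1 and -1.25 without FM 2, the lowest and highest of 6 omissions, 2.25 over mouse-case symbols and 1.5 with 1 value per symbol. Some uncalled log2 differences changed sign. Snora31 was 0.14 with median ratio scaling, 0.0096 with quantile normalization and 1.07 with the date block, and -0.68 to 0.60 over omissions. Scarna2 was 0.070 with median ratio scaling, 0.060 with quantile normalization and 0.64 with the replicate block, and -1.06 to 0.94 over omissions. Snora68 was 0.37 with the replicate block and -1.86 to 1.01 over omissions, and snoU90 -0.61 with a pseudocount of 0.1 and -1.10 to 1.20 over omissions. Over omissions SNORA4 ran from -3.86 to 3.58, snoU97 from -1.48 to 5.14 and snoU89 from -0.75 to 1.74. Unknown depth limits every listing at 0.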
